A study of Mus musculus with 6 samples.

Results

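Macrophage and monocyte identity was followed in mouse colon through 10 genes, *Adgre1*, *Cd68*, *Csf1r*, *Csf1*, *Cx3cr1*, *Cd163*, *Mrc1*, *Lyz2*, *Mertk* and *Arg1*. They were taken by gene symbol from the deposited table, and the 10 genes are among its 18477 rows. Male C57BL/6 mice aged 6 to 8 weeks drank 2% (w/v) dextran sulfate sodium (DSS), a polymer that injures the colon epithelium and brings on colitis, for 7 days. Over 14 days they were gavaged daily with buffer (DSS, 3 mice) or with *Bacteroides vulgatus*, a gut commensal, in the same buffer (DSS+BV, 3 mice). DSS was given in the last 7 of these days, so gavage began before it. Both groups drank DSS, so the comparison is of bacterium against buffer, each given before and during DSS. Mice without DSS were not analysed here. The mice were drawn from larger groups, bulk colon RNA was sequenced with 1 library per mouse, and the library totals lay between 15293276 and 17254343 expected counts.

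Macrophages of the colon are renewed largely by blood monocytes, which enter through the chemokine receptor CCR2 and, in healthy tissue, mature step by step into cells that carry CX3CR1, the mannose receptor CD206 (*Mrc1*) and the haemoglobin scavenger receptor CD163. In colitis that maturation is known to stall, and Ly6C-high monocytes and their inflammatory progeny collect in the mucosa. Survival of macrophages depends on the receptor CSF1R, which binds the cytokines CSF1 and IL-34. The 10 genes therefore cover receptors of mature macrophages (*Cd163*, *Mrc1*, *Mertk*), the growth factor and its receptor (*Csf1*, *Csf1r*), pan-macrophage and monocyte genes (*Adgre1*, *Cd68*, *Cx3cr1*, *Lyz2*) and the enzyme arginase 1 (*Arg1*). *Cx3cr1* belongs to mature macrophages as well as to monocytes. In whole tissue, fewer macrophages and less of a transcript per macrophage cannot be told apart.

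Among the receptors of mature macrophages, *Cd163* and *Mrc1* separated the groups, while *Mertk* and *Cx3cr1*, which monocytes carry as well, did not. *Cd163* and *Mrc1* were lower in each DSS+BV mouse than in each DSS mouse, with fitted differences between the groups of 3.95-fold and 2.51-fold, while *Adgre1*, *Cx3cr1* and *Lyz2* overlapped between the groups and *Mertk* did not share the pattern. None of the 10 genes was called by the quasi-likelihood test of edgeR at an adjusted p under 0.05 with a log2 fold change beyond 1, a call that 0.0892% of the 14579 tested genes received. At an unadjusted p under 0.05, 2 of the 10 were lower and 0 were higher, where 9.12% of all tested genes were lower and 3.40% were higher. Groups without overlap were likewise seen for 2 of the 10, both lower, beside 11.3% of all tested genes that were lower and 6.37% that were higher without overlap, so neither share of the 10 stands far from the background. The median log2 fold change of the 10 genes was -0.57, with 8 lower and 2 higher, while the median of all tested genes was -0.01. DESeq2 called 2 of the 10, *Cd163* and *Mrc1*, where it called 1.73% of genes lower.

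The libraries did not sort by treatment. Over all tested genes, DSS 1, DSS 3 and DSS+BV 1 clustered together, and DSS 2, DSS+BV 2 and DSS+BV 3 formed the other cluster. The mean of the 10 genes, as log2 CPM (counts scaled to the size of the library) centred on each gene's mean over the libraries, was 0.38, -0.03 and 0.69 in the DSS mice and 0.38, -0.73 and -0.69 in the DSS+BV mice. DSS+BV 1 therefore stood with DSS 1 and DSS 3, and DSS 2 lay between them and the remaining DSS+BV mice. Marker genes of other cells also differed between the libraries. Over 10 colon epithelium genes the summed level was 10455, 19159 and 13794 CPM in the DSS mice and 18514, 31346 and 38715 CPM in the DSS+BV mice. Most of that spread was in *Muc2*, the goblet cell mucin, and *Car1*, a carbonic anhydrase of colonocytes, a pair named after the values were seen. The other 8 genes summed to 7291, 7947 and 8617 CPM in the DSS mice and 10712, 12628 and 9313 CPM in the DSS+BV mice, without overlap, and 0 of the 10 were called by edgeR, with 3 higher at an unadjusted p under 0.05. Sums of 6 B and plasma cell genes lay between 552 and 1613 CPM in the DSS mice and between 245 and 1119 CPM in the DSS+BV mice. The part of these differences in the values below was not tested.

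**Figure D1:**
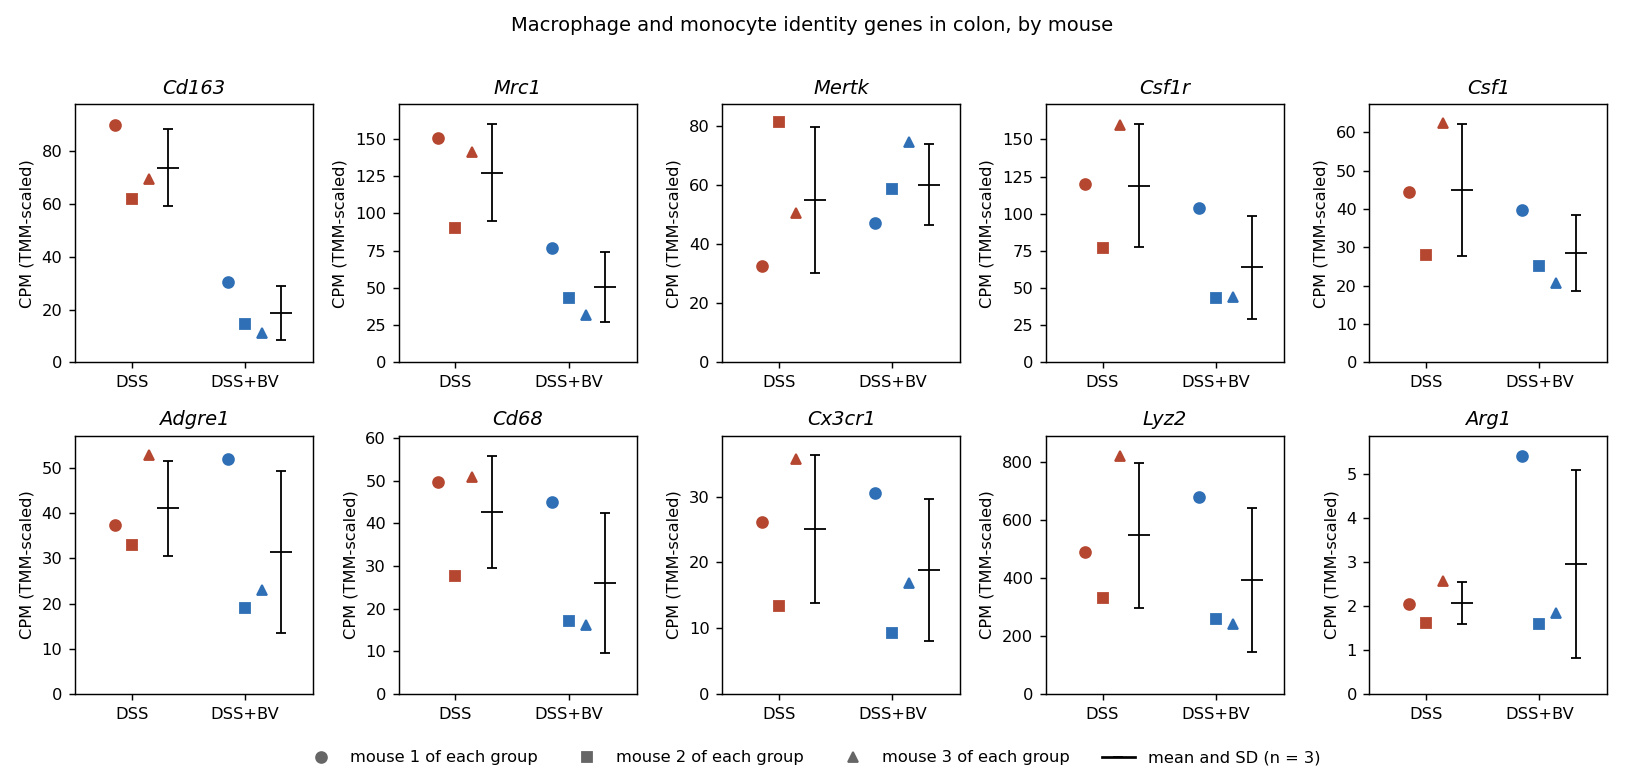
Level of each gene in each mouse, as CPM scaled by TMM factors (vertical axes, each from 0), for 3 DSS mice (red) and 3 DSS+BV mice (blue), with the mean and SD of each group in black. *Cd163* and *Mrc1* are the 2 genes whose groups do not overlap, and mouse 1 of the DSS+BV group is the highest of its group for all genes except *Mertk*.

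CD163 takes up haemoglobin bound to haptoglobin and marks tissue-resident macrophages. *Cd163* (Entrez gene 93671, chr6:124304636-124330529 of GRCm38.p6) was measured at 90.0, 62.0 and 69.7 CPM in the DSS mice and 30.5, 14.5 and 11.1 CPM in the DSS+BV mice. The highest DSS+BV mouse, DSS+BV 1, lay below the lowest DSS mouse, DSS 2, and the groups did not overlap. The means were 73.9 ± 14.4 CPM and 18.7 ± 10.3 CPM (SD, n = 3 each). The log2 fold change was -1.98 ± 0.39 (standard error), with an unadjusted p of 0.00168 and an adjusted p of 0.189 by edgeR, and an adjusted p of 0.000264 by DESeq2.

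*Mrc1* encodes CD206, an endocytic receptor for mannose-bearing glycoproteins. *Mrc1* (Entrez gene 17533, chr2:14229414-14332023) was measured at 151, 90.3 and 142 CPM in the DSS mice and 77.0, 43.3 and 31.7 CPM in the DSS+BV mice. Here too the groups did not overlap, although DSS 2 at 90.3 CPM and DSS+BV 1 at 77.0 CPM were close. Its log2 fold change was -1.33 ± 0.36, with an unadjusted p of 0.00862, an adjusted p of 0.300 by edgeR and one of 0.0317 by DESeq2. For both receptors the exact two-sided permutation test over the mice gave p = 0.1, the smallest value that 3 mice against 3 can give. The order of the mice by *Cd163* and by *Mrc1* was the same, with a Pearson r of 0.98 over the 6 libraries, which include the difference between the groups.

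MERTK is the receptor tyrosine kinase by which macrophages bind and engulf dying cells. *Mertk* (Entrez gene 17289, chr2:128698915-128803162) was measured at 32.5, 81.3 and 50.6 CPM in the DSS mice and 47.2, 58.8 and 74.4 CPM in the DSS+BV mice, and DSS 1 was the lowest and DSS 2 the highest of the 6 mice. Its log2 fold change was 0.13 ± 0.34 with an adjusted p of 0.895 by edgeR, and the sign turned without DSS 1 (-0.13) or without DSS+BV 3 (-0.04). Across the 6 libraries *Mertk* went against each of the other 9 genes, with Pearson r between -0.71 (*Cd68*) and -0.39 (*Arg1*). Which cells of the tissue supplied the *Mertk* reads was not measured, so its level is not one of macrophages alone.

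The upstream bases of these 3 genes and of *Cd68* are shown because *Cd163* and *Mrc1* had the same order of mice, *Cd68* stands for the pan-macrophage genes, and *Mertk* ran the other way. They come from RefSeq, in GRCm38.p6, 5′ to 3′ on the gene's strand and ending at or before the annotated start, with bases covered by an annotated transcript left out. The first 20 bases after the RefSeq start were found in a GENCODE vM21 transcript of *Mrc1* but not in one of *Cd163*, *Mertk* or *Cd68*, so the windows of these 3 and their matches rest on the RefSeq start. Capitals mark matches, on either strand, to GAGGAA, the core bound by PU.1 (the master regulator of the myeloid lineage, *Spi1*), and to TTNNGNAA, a form of the site of C/EBP factors. The windows are chr6:124304401-124304635 (plus strand), chr2:14229164-14229391 (plus), chr2:128698665-128698914 (plus) and chr11:69666171-69666420 (minus).
Cd163: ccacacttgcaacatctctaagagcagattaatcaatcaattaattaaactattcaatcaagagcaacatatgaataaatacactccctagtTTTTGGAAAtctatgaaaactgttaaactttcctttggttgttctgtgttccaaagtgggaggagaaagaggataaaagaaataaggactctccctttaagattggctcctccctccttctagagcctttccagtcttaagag
Mrc1: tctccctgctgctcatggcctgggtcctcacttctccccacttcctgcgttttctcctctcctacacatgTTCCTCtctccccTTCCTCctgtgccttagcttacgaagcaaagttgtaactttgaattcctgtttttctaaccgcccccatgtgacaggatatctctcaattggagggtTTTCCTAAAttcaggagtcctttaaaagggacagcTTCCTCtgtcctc
Mertk: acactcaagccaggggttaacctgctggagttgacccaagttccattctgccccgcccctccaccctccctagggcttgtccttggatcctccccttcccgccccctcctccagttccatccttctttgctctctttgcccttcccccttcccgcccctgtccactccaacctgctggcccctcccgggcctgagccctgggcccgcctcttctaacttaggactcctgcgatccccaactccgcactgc
Cd68: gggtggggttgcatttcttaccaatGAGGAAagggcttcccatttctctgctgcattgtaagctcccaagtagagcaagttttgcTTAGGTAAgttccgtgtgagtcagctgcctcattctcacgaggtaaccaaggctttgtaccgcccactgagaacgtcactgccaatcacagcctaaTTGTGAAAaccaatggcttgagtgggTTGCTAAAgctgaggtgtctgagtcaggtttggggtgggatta

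The table held promoters for 7 of the 10 genes, those of *Adgre1*, *Arg1* and *Csf1r* not being matched. Over the whole 250 bases before the start, GAGGAA was found in 2 of the 7 (*Mrc1*, at 3 places, and *Cd68*), beside 23.3% of 32851 promoters. TTNNGNAA was found in 4 of the 7 (*Mrc1*, *Cd163*, *Lyz2* and *Cd68*), beside 36.8%. In *Mrc1* and in *Cd163*, the stretch in capitals holds 2 overlapping matches to TTNNGNAA. The AP-1 motif TGANTCA was found in *Cd68* alone, at 2 places and not capitalised above, beside 6.75% of promoters, and the E-box CACGTG in 0 of the 7, beside 6.02%. *Mertk* held no match to these 4 motifs in its window. These matches are a description of letters in a window, and binding was not measured.

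CSF1 and its receptor overlapped between the groups. *Csf1r* (Entrez gene 12978, chromosome 18), the receptor on which macrophages depend, was measured at 120.1, 76.8 and 159.6 CPM in the DSS mice and 104, 43.6 and 44.1 CPM in the DSS+BV mice. DSS+BV 1 lay above DSS 2, and the other DSS+BV mice lay below all DSS mice. The log2 fold change of *Csf1r* was -0.90 ± 0.42, with an unadjusted p of 0.0731 and an adjusted p of 0.441 by edgeR. Its exons overlap *Hmgxb3* on the opposite strand, and whether the counting used strand is not given in the sources used here.

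*Csf1* (Entrez gene 12977, chr3:107741048-107760469), the ligand, which stromal cells and endothelium also make, was measured at 44.4, 27.9 and 62.5 CPM in the DSS mice and 39.6, 25.1 and 20.7 CPM in the DSS+BV mice. Its log2 fold change was -0.66 ± 0.36, with an adjusted p of 0.498 by edgeR, and DSS 2 lay among the DSS+BV mice. *Il34*, the second ligand of the receptor, was measured at 23.5, 19.2 and 37.0 CPM in the DSS mice and 19.3, 13.6 and 8.09 CPM in the DSS+BV mice, which differ by a log2 fold change of -0.96 ± 0.38 at an unadjusted p of 0.0412 and an adjusted p of 0.388 by edgeR. Ligand and receptor ran together, with a Pearson r of 0.96 between *Csf1* and *Csf1r* over the 6 libraries.

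In the pan-macrophage and monocyte genes, DSS+BV 1 lay among the DSS mice. *Adgre1* (Entrez gene 13733, chr17:57358581-57483529), which encodes the surface protein F4/80, was measured at 37.3, 32.9 and 52.9 CPM in the DSS mice and 52.0, 19.1 and 23.0 CPM in the DSS+BV mice. DSS+BV 1 reached the level of DSS 3, the highest DSS mouse, and its 2 group mates lay below all DSS mice. The log2 fold change was -0.39 ± 0.40 (adjusted p 0.716, edgeR).

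*Cd68* (Entrez gene 12514, chr11:69664213-69666170) encodes a membrane glycoprotein of late endosomes and lysosomes, and was measured at 49.7, 27.5 and 50.9 CPM in the DSS mice and 44.9, 17.1 and 16.1 CPM in the DSS+BV mice. *Cx3cr1* (Entrez gene 13051, chr9:120048683-120068296), the fractalkine receptor of mature gut macrophages and patrolling monocytes, was measured at 26.2, 13.3 and 35.7 CPM in the DSS mice and 30.5, 9.24 and 16.8 CPM in the DSS+BV mice. *Lyz2* (Entrez gene 17105, chr10:117277541-117282272), the lysozyme of myeloid cells, had the highest CPM of the 10, at 491, 331 and 824 CPM in the DSS mice and 682, 259 and 241 CPM in the DSS+BV mice. In all 3 genes DSS+BV 1 lay above at least 1 DSS mouse, so the groups overlapped, and the log2 fold changes were -0.71 ± 0.46, -0.41 ± 0.51 and -0.48 ± 0.50, with adjusted p of 0.554, 0.764 and 0.721 by edgeR. *Cx3cr1* shares exonic sequence with *Gm33858* on the other strand.

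*Lyz2* has a close relative, *Lyz1*, the lysozyme of Paneth cells, so reads could be split between them. The 2 transcripts were 92.0% identical over 1317 aligned positions, while 1.97% of the 100-base windows of *Lyz2* occurred in *Lyz1*, and both genes had whole-number counts in all 6 libraries. *Lyz1* was measured at 18.7, 11.2 and 32.7 CPM in the DSS mice and 28.0, 9.94 and 12.8 CPM in the DSS+BV mice, far below *Lyz2* in each library, and its order of mice was close to that of *Lyz2*.

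*Arg1* (Entrez gene 11846, chr10:24915207-24927470), which splits arginine into ornithine and urea and is a standard sign of alternatively activated macrophages in mice, had the lowest CPM of the 10. It was measured at 2.04, 1.62 and 2.56 CPM in the DSS mice and 5.41, 1.59 and 1.83 CPM in the DSS+BV mice. The difference in the means rested on DSS+BV 1, since its 2 group mates lay within or below the range of the DSS mice. The log2 fold change was 0.50 ± 0.54 (adjusted p 0.723, edgeR) with that mouse and -0.26 without it.

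**Figure D2:**
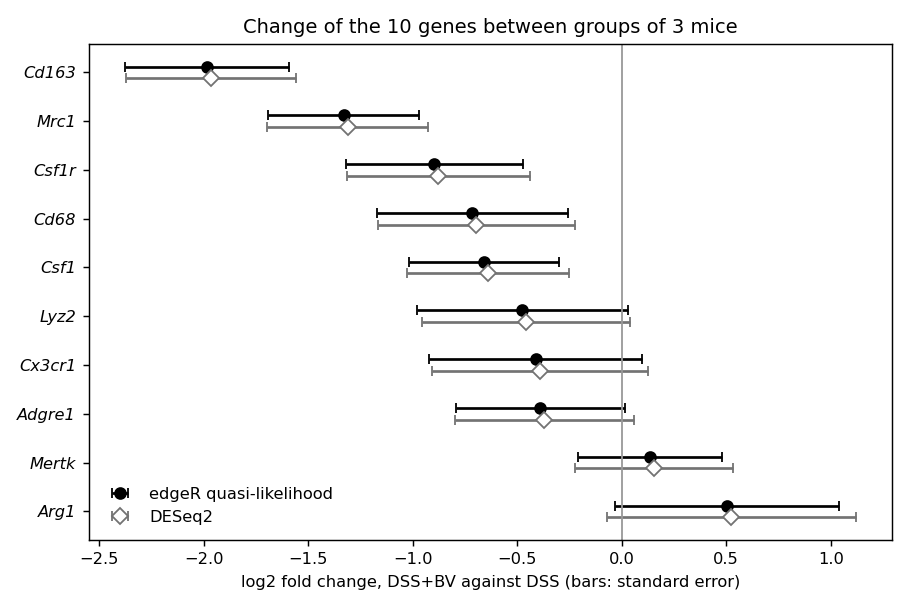
Log2 fold change of DSS+BV against DSS (horizontal axis) for each of the 10 genes, with its standard error, by edgeR (filled circles) and DESeq2 (open diamonds), over 3 mice in each group. The edgeR values run from -1.98 for *Cd163* to 0.50 for *Arg1*, those of DESeq2 from -1.96 to 0.52, and both methods place the genes in the same order.

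Levels can be set side by side between genes only per length. As CPM per kilobase of exon, *Lyz2* was the highest in each library, at 373, 251 and 626 in the DSS mice and 519, 197 and 183 in the DSS+BV mice. In the DSS mice *Cd68*, *Csf1r*, *Mrc1* and *Cd163* followed with means of 34.0 ± 10.5, 24.3 ± 8.48, 23.7 ± 6.05 and 16.5 ± 3.22 (SD, n = 3), and neighbours in that order differed by less than the sum of their SDs. *Mertk* at 12.7 ± 5.74, *Adgre1* at 12.7 ± 3.25, *Csf1* at 9.52 ± 3.66, *Cx3cr1* at 5.56 ± 2.49 and *Arg1* at 1.40 ± 0.321 came last. In the DSS+BV mice *Cd163* was at 6.79, 3.24 and 2.48, near *Cx3cr1* at 6.76, 2.05 and 3.73, while in the DSS mice *Cd163* exceeded *Cx3cr1* in each library. *Mertk* per kilobase lay above *Cd163* in each DSS+BV mouse (10.98, 13.7 and 17.3) and below it in DSS 1 and DSS 3.

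To set the genes against each other within a mouse, their counts were divided by those of *Csf1r* in the same library, a choice made after the values had been seen. The ratio of *Cd163* to *Csf1r* was 0.749, 0.808 and 0.437 in the DSS mice and 0.293, 0.333 and 0.253 in the DSS+BV mice (means 0.665 ± 0.200 and 0.293 ± 0.0402, SD, n = 3), and the groups did not overlap. Of all tested genes, 0.851% had a lower ratio to *Csf1r* without overlap. *Cd163* was thus low per *Csf1r* in DSS+BV 1 as well, the mouse whose *Csf1r* level was close to that of DSS 1.

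For *Mrc1* the ratios to *Csf1r* were 1.25, 1.18 and 0.887 in the DSS mice and 0.742, 0.991 and 0.720 in the DSS+BV mice, which overlap. *Adgre1*, *Lyz2* and *Arg1* were higher per *Csf1r* in the DSS+BV mice without overlap, as were 6.98% of all tested genes. Their ratios were 0.311, 0.429 and 0.332 against 0.500, 0.438 and 0.522 for *Adgre1*, 4.09, 4.31 and 5.16 against 6.57, 5.93 and 5.47 for *Lyz2* and 0.0169, 0.0211 and 0.0161 against 0.0521, 0.0365 and 0.0416 for *Arg1*. Each of the ratios without overlap had an exact two-sided permutation p of 0.1, the smallest possible with 3 mice against 3, and an adjusted p of 0.243 over the 17 distinct ratios computed.

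**Figure D3:**
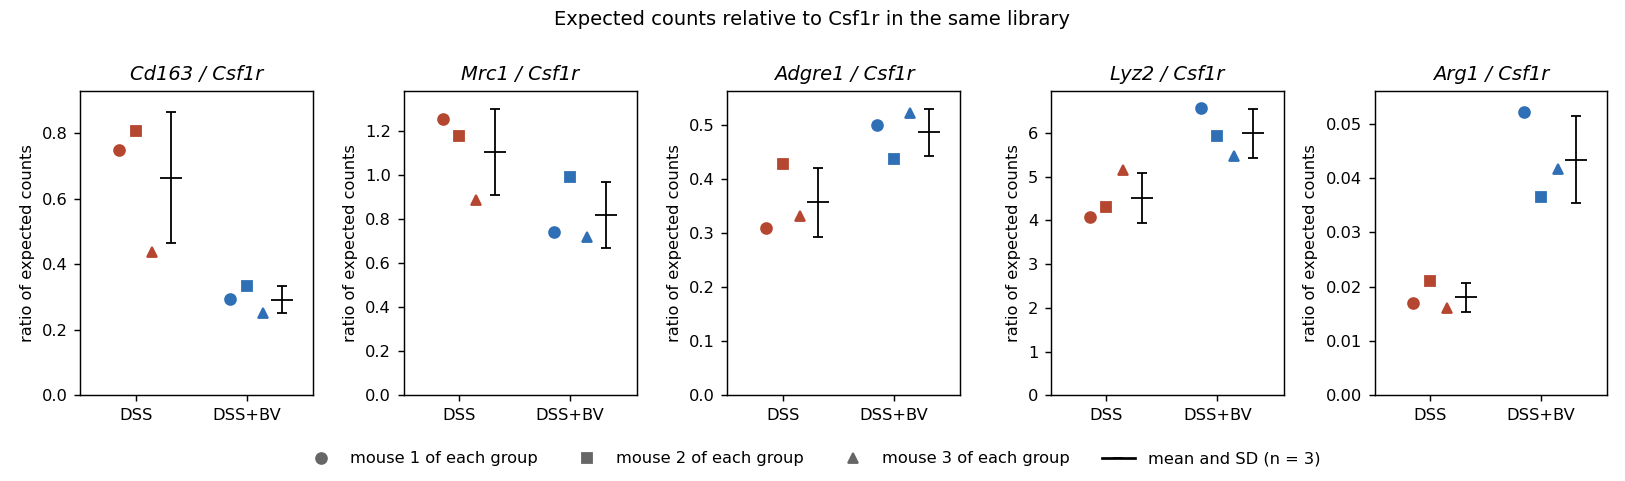
Ratio of the expected counts of 5 genes to those of *Csf1r* in the same library (vertical axes, each from 0) for 3 DSS mice (red) and 3 DSS+BV mice (blue), with group mean and SD in black. *Cd163* per *Csf1r* is at most 0.333 in the DSS+BV mice and at least 0.437 in the DSS mice, while *Adgre1*, *Lyz2* and *Arg1* are higher in each DSS+BV mouse.

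Divided by *Adgre1* instead, *Cd163* gave 2.41, 1.88 and 1.32 in the DSS mice and 0.586, 0.760 and 0.484 in the DSS+BV mice. *Mrc1* per *Adgre1* was 4.04, 2.74 and 2.67 against 1.48, 2.26 and 1.38, and did not overlap on this scale. *Csf1r* per *Adgre1*, the inverse of a ratio given above, was also lower without overlap, and *Arg1* per *Adgre1* was higher without overlap. The share of all tested genes without overlap per *Adgre1* was not computed, so how common this is was not measured. *Lyz2* per *Adgre1* overlapped, at 13.2, 10.04 and 15.6 and 13.1, 13.5 and 10.5, and the 2 genes had a Pearson r of 0.96 over the 6 libraries. The log2 ratio of *Cd163* differed between the groups by -1.14 per *Csf1r* and -1.60 per *Adgre1*. A shared divisor shifts the log2 difference of each gene by the same amount. The order of the 10 genes by log2 difference is therefore the same on both scales and adds nothing to that of their levels.

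**Figure D4:**
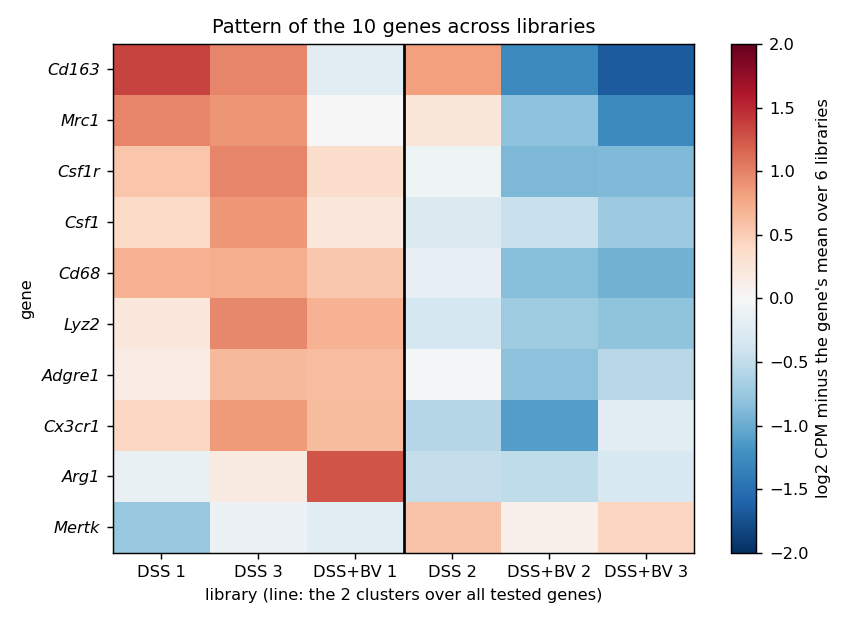
Log2 CPM of each gene minus its mean over the 6 libraries (colour, red above and blue below the mean), with the libraries in the order of the 2 clusters found over all tested genes, separated by the black line. DSS+BV 1 is on the side of DSS 1 and DSS 3 for *Adgre1*, *Cd68*, *Cx3cr1* and *Lyz2* but below its row mean for *Cd163*, and *Mertk* is lowest in DSS 1.

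Resident and recruited cells were compared through wider lists, 22 genes of resident macrophages and 23 of recruited monocytes and inflammatory macrophages, which hold 6 and 2 of the 10 genes. Of 21 resident genes tested, 19 were lower and 6 were lower at an unadjusted p under 0.05, with 0 called by edgeR and 2 by DESeq2 (*Cd163* and *Mrc1*), and a median log2 fold change of -0.87. Of 23 recruited genes, 22 were lower and 11 were lower at an unadjusted p under 0.05, with 0 called by edgeR and 6 by DESeq2, and a median of -1.21. Groups did not overlap for 3 of the 21 and 11 of the 23, beside the 11.3% of all genes. At an unadjusted p under 0.05 by edgeR, 9.12% of all tested genes were lower. Without the 10 genes themselves the medians were -0.87 (15 genes) and -1.28 (21 genes).

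Among the other resident genes, the complement genes *C1qa*, *C1qb* and *C1qc*, which tissue macrophages express strongly, had log2 fold changes of -0.87, -0.93 and -0.89 with overlapping groups. *C1qc* was measured at 168, 88.2 and 226 CPM in the DSS mice and 134, 66.6 and 59.3 CPM in the DSS+BV mice. *Pf4*, a chemokine gene of platelets that macrophages share, was lower without overlap, at 21.9, 12.9 and 36.9 CPM in the DSS mice and 12.3, 9.17 and 9.04 CPM in the DSS+BV mice (adjusted p 0.334, edgeR). *Siglec1*, the sialic acid receptor CD169, had a log2 fold change of -1.36 ± 0.48, and *Lyve1*, which lymphatic endothelium also carries, one of -1.11 ± 0.41, both with overlap between the groups. *Gas6*, a bridging ligand for MERTK, had one of 0.00.

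The recruited genes with the smallest p were *Chil3*, *Saa3* and *Trem1*. *Chil3*, which encodes the chitinase-like protein Ym1, was measured at 22.9, 8.64 and 33.1 CPM in the DSS mice and 1.91, 0.764 and 1.201 CPM in the DSS+BV mice, a log2 fold change of -4.05 ± 0.60 (adjusted p 0.113 by edgeR, 8.02e-10 by DESeq2). *Saa3*, an acute-phase apolipoprotein made by macrophages and by epithelium, was measured at 136, 312 and 457 CPM in the DSS mice and 10.6, 32.6 and 26.1 CPM in the DSS+BV mice. *Trem1*, an amplifying receptor of neutrophils and monocytes, was measured at 3.23, 3.92 and 4.60 CPM in the DSS mice and 0.923, 0.446 and 0.253 CPM in the DSS+BV mice. In these 3 genes DSS+BV 1 lay with its group and not with DSS 1 and DSS 3.

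The receptors that define entering monocytes separated less. *Ccr2* was measured at 40.4, 20.9 and 50.02 CPM in the DSS mice and 32.0, 11.1 and 7.90 CPM in the DSS+BV mice, with a log2 fold change of -1.13 ± 0.58 (adjusted p 0.472, edgeR). *Ly6c2*, which encodes the surface protein Ly6C, was measured at 4.97, 6.90 and 18.3 CPM in the DSS mice and 17.8, 4.08 and 3.03 CPM in the DSS+BV mice, with DSS+BV 1 next to DSS 3 and the other mice low. Its expected counts had a fraction in each library, from 48.01 in DSS+BV 3 to 315.25 in DSS 3, as RSEM gives for reads shared between genes. *Plac8* and *Fn1*, taken from the list for their high mean CPM, had log2 fold changes of -0.40 ± 0.43 and -1.02 ± 0.43. *Fn1* lay between 166 and 862 CPM, and the part of stromal and other cells in the levels of *Fn1* and *Plac8* was not measured.

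Several recruited genes are also neutrophil genes, among them *Trem1*, *Itgam*, *Chil3*, *Clec4e*, *Il1b* and *Hp*. Of 14 neutrophil markers 11 were tested and 10 were lower, with a median log2 fold change of -3.61. By edgeR 6 were called lower, where 0.0892% of all tested genes were called in either direction. The summed level of the 14 was between 525 and 1136 CPM in the DSS mice and between 215 and 610 CPM in the DSS+BV mice. Most of this sum was *Ly6g* and *Cd177*, neither of them called and a pair named after the values were seen, and the other 12 genes summed to 180, 141 and 207 CPM in the DSS mice and 26.1, 15.5 and 13.1 CPM in the DSS+BV mice, without overlap. The 3 that were not tested were *Camp*, *Mpo* and *Elane*, with at most 4, 3 and 0 counts in a library. The part of neutrophils in the recruited list was not tested.

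As a score per mouse, the mean centred log2 CPM of the resident list was 0.59, 0.00 and 0.69 in the DSS mice and 0.24, -0.64 and -0.88 in the DSS+BV mice. That of the recruited list was 0.64, 0.38 and 1.43 and 0.01, -0.98 and -1.49. Resident minus recruited was -0.06, -0.38 and -0.74 in the DSS mice and 0.23, 0.33 and 0.61 in the DSS+BV mice, a difference of 0.78 between the group means, and 0.93 with the 10 genes left out. On this mean the recruited genes were lower by more than the resident genes. DSS+BV 1 took its group's side of this balance, while its resident score alone lay between those of the DSS mice. The fall was uneven within the recruited list. Log2 fold changes were -4.05 (*Chil3*), -3.73 (*Nos2*), -3.71 (*Saa3*), -3.31 (*Hp*) and -2.84 (*Trem1*), genes that neutrophils or epithelium also express. They were -0.28 (*Ly6c2*), -0.40 (*Plac8*), -0.82 (*Ms4a4c*), -0.86 (*Cd14*) and -1.13 (*Ccr2*), beside the resident median of -0.87. Genes of this second group need not be of monocytes alone either. *Plac8* lay between 643 and 2086 CPM, where *Ccr2* lay between 7.90 and 50.02 CPM, and which cells supplied its reads was not measured. The score sets the lists against each other, and which cells it reflects was not tested. No test was made of these scores, because the lists hold genes chosen with results of these data known.

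**Figure D5:**
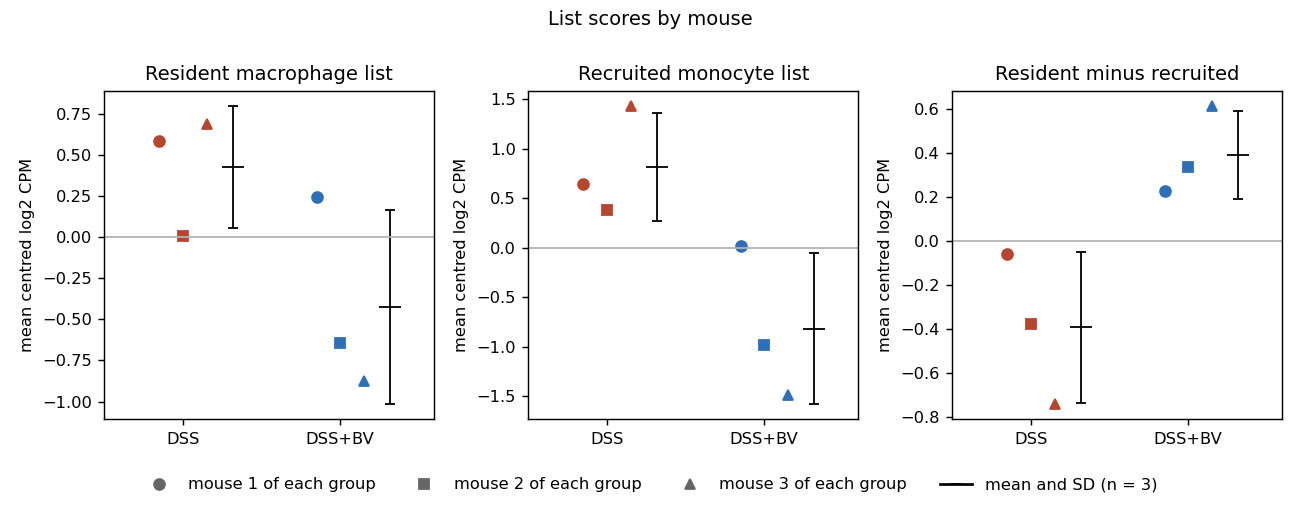
Mean centred log2 CPM per mouse (vertical axis) of the resident macrophage list (21 genes), the recruited monocyte list (23 genes) and their difference, for 3 DSS mice (red) and 3 DSS+BV mice (blue), with group mean and SD in black. The difference is at most -0.06 in the DSS mice and at least 0.23 in the DSS+BV mice. The recruited list holds genes that neutrophils, epithelium and other cells also express.

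Around the CSF1 receptor, 16 of 17 genes were tested, and 4 were lower and 0 higher at an unadjusted p under 0.05, with 0 called by edgeR and 1 by DESeq2. At the same unadjusted p by edgeR, 9.12% of all tested genes were lower and 3.40% were higher. *Cebpb*, which encodes a transcription factor of inflammatory myeloid gene expression and of monocyte survival, had the smallest p of them, at 33.6, 25.6 and 33.3 CPM in the DSS mice and 12.3, 14.5 and 10.2 CPM in the DSS+BV mice, with no overlap and a log2 fold change of -1.32 ± 0.20 (adjusted p 0.123 by edgeR and 1.65e-05 by DESeq2). *Spi1*, which encodes PU.1, was measured at 23.6, 10.4 and 32.3 CPM in the DSS mice and 16.5, 6.05 and 4.99 CPM in the DSS+BV mice, and *Tyrobp*, the adaptor of TREM2 and other myeloid receptors, at 47.7, 27.7 and 60.8 CPM in the DSS mice and 33.2, 14.5 and 18.1 CPM in the DSS+BV mice. In both, DSS+BV 1 lay above DSS 2. *Klf4* and *Irf8*, transcription factor genes that epithelium and B cells respectively also express, had log2 fold changes of 0.23 and 0.08.

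At an unadjusted p under 0.05, 9.12% of all tested genes were lower and 3.40% higher, and 11.3% were lower without overlap. Of 18 genes for the uptake of dying cells, all tested, 8 were lower and 0 higher at that p, and 6 were lower without overlap. *Pros1*, which encodes protein S, the other bridging ligand of MERTK, was one of them, at 69.9, 59.4 and 106 CPM in the DSS mice and 47.4, 47.1 and 34.6 CPM in the DSS+BV mice (log2 fold change -0.86 ± 0.25, adjusted p 0.318, edgeR). *Axl*, the sister receptor of *Mertk*, was measured at 128, 111 and 196 CPM in the DSS mice and 124, 83.3 and 82.8 CPM in the DSS+BV mice, and unlike *Mertk* it was highest in DSS 3 and lowest in DSS+BV 3. *Marco*, a scavenger receptor for bacteria, was measured at 4.31, 3.61 and 10.02 CPM in the DSS mice and 0.792, 0.319 and 0.569 CPM in the DSS+BV mice (log2 fold change -3.40 ± 0.57, adjusted p 0.145 by edgeR and 8.35e-06 by DESeq2). *Cd36* and *Itgb5*, which take part in binding apoptotic cells, were also lower without overlap, with log2 fold changes of -1.02 and -0.55, and *Lrp1*, taken for its high mean CPM, had one of -0.21.

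Genes of alternative activation were tested for 11 of 13, with a median log2 fold change of -0.81. At an unadjusted p under 0.05, where 9.12% of all tested genes were lower and 3.40% higher, 5 of the 11 were lower and 0 higher. Besides *Mrc1* and *Chil3* they were *Clec10a*, *Il4ra* and *Tgm2*. *Clec10a*, a galactose-binding lectin of macrophages and dendritic cells, was measured at 22.3, 13.6 and 20.1 CPM in the DSS mice and 6.40, 5.48 and 2.91 CPM in the DSS+BV mice (log2 fold change -1.92 ± 0.36, adjusted p 0.175 by edgeR and 0.000113 by DESeq2). *Il4ra*, which stromal and epithelial cells also express, had a log2 fold change of -0.67, and *Tgm2*, a transglutaminase, was measured at 384, 219 and 604 CPM in the DSS mice and 185, 199.6 and 219 CPM in the DSS+BV mice. *Arg1* was among the 3 of the 11 with a log2 fold change above 0.

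In arginine metabolism, 8 of 9 genes were tested and 3 were lower and 0 higher at an unadjusted p under 0.05, where 9.12% and 3.40% of all tested genes were. *Nos2*, the inducible nitric oxide synthase that competes with arginase for arginine and that epithelium makes as well, was measured at 146, 128 and 358 CPM in the DSS mice and 33.8, 8.03 and 5.75 CPM in the DSS+BV mice, a log2 fold change of -3.73 ± 0.80 (adjusted p 0.220 by edgeR and 1.14e-05 by DESeq2). *Arg2*, the mitochondrial arginase, was measured at 2.096, 8.77 and 5.59 CPM in the DSS mice and 2.84, 17.6 and 29.1 CPM in the DSS+BV mice, with overlap between the groups and a log2 fold change of 1.59 ± 0.84 (adjusted p 0.489, edgeR). *Ass1* and *Slc7a2*, which remake and import arginine, had log2 fold changes of -0.90 and -0.71, and *Odc1* and *Oat*, which act downstream on ornithine, 0.35 and 0.41.

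Of 15 lysosome and lysozyme genes, all tested, 2 were lower and 0 higher at an unadjusted p under 0.05, where 9.12% and 3.40% of all tested genes were. The 2 were *Ctsl* at -0.62 and *Lgmn* at -0.75 on the log2 scale, both cysteine proteases of lysosomes. *Ctsb* and *Lamp1*, taken for their high mean CPM and used by most cell types, had log2 fold changes of -0.41 and 0.08. For the ligand of CX3CR1, *Cx3cl1*, and the proteases that shed it, *Adam10* and *Adam17*, the values were 0.12, -0.11 and -0.11, and 0 of the 4 genes of this axis passed an unadjusted p under 0.05.

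Of 6 fibroblast genes, 6 were lower at an unadjusted p under 0.05, with 0 called by edgeR and 3 by DESeq2, and of 6 endothelial genes 2 were, with 0 called by either. Over all tested genes, 9.12% were lower at that unadjusted p by edgeR. The sum of 6 fibroblast genes was between 3670 and 4039 CPM in the DSS mice and between 1305 and 1923 CPM in the DSS+BV mice, without overlap, and that of 6 endothelial genes was between 303 and 383 CPM and between 201 and 274 CPM. Of 6 smooth muscle genes 0 passed an unadjusted p under 0.05, and their sums overlapped, at 3183 to 3915 CPM and 2297 to 3821 CPM, as did the sums of 6 T cell genes, at 35.4 to 67.7 CPM and 36.6 to 74.6 CPM. Of 6 enteric neuron and glia genes, 5 were lower at an unadjusted p under 0.05, with 0 called by edgeR and 2 by DESeq2, and their sums lay between 28.1 and 99.9 CPM in the DSS mice and between 20.9 and 23.1 CPM in the DSS+BV mice, and those of 5 eosinophil genes between 8.21 and 35.9 CPM and between 4.97 and 5.80 CPM. In DSS 1 and DSS 3 the eosinophil sum was mostly *Il5ra*, a gene B cells also express, which was at 24.0, 1.62 and 29.6 CPM in the DSS mice and 2.77, 1.02 and 0.695 CPM in the DSS+BV mice, while the defining gene *Epx* had at most 3 counts in a library. Dendritic cell markers, 9 genes some of which macrophages share, summed to between 25.7 and 83.4 CPM and between 21.8 and 53.6 CPM. The part of these differences in the values of *Cd163* and *Mrc1* was not tested.

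Likeness of pattern was taken as Pearson r over the 6 libraries, among 11932 genes with a mean of at least 5 CPM, and is a description, since the 6 points share the difference between the groups and that between the clusters. The genes closest to the mean of the 10 were *Tbxas1* (0.998), *Bst1* (0.997), *Rassf2* (0.995), *Selplg* (0.995) and *Tlr13* (0.994). *Tbxas1* was measured at 6.95, 4.35 and 9.61 CPM in the DSS mice and at 7.19, 2.29 and 2.53 CPM in the DSS+BV mice. *Cd163* was closest to *Il6st* (0.997) and *Fbln2* (0.996), and *Mrc1* to *Nav1* (0.998) and *C4b* (0.995). *Csf1r* was closest to *Sdc3* and *Selplg* (0.998 each) and *Csf1* to *C1qa* (0.999) and *Tubb6* (0.996). *Mertk* was closest to *Pcdh17* (0.996) and *Tmem220* (0.992).

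For the others, *Adgre1* was closest to *Rasgrp3* (0.989) and *Myo1f* (0.987), *Cd68* to *Il6ra* (0.997) and *Atp10a* (0.995), *Cx3cr1* to *Sp100* (0.995) and *Sh3bp1* (0.990), and *Lyz2* to *Jak1* (0.998) and *Klhl6* (0.998). Among the 10 genes themselves, r was 0.98 for *Cd68* with *Csf1r* and 0.70 for *Cd163* with *Adgre1*. In DSS+BV 1, *Adgre1* at 52.0 CPM lay above DSS 1 and DSS 2, and *Cd163* at 30.5 CPM lay below all DSS mice.

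DSS+BV 1 decided how many of the genes differed. It was the highest of its group for all of the 10 except *Mertk*, so leaving it out widens the difference by construction. The shares of all tested genes given beside the counts do not correct for that. Without it, 7 of the 10 were lower at an unadjusted p under 0.05 and 7 were lower without overlap (*Adgre1*, *Cd68*, *Csf1r*, *Csf1*, *Cd163*, *Mrc1* and *Lyz2*), where 11% and 21.4% of all tested genes were, and none was called. The median log2 fold change of the 10 was then -1.04, *Cd163* was at -2.51 (adjusted p 0.0621, edgeR) and *Adgre1* at -0.95. DSS 2 was the lowest DSS mouse for all of the 10 except *Mertk*, so the same holds for leaving it out. Without DSS 2, 4 of the 10 were lower at an unadjusted p under 0.05 and 5 were lower without overlap. Of all tested genes, 9.02% and 18.9% were, and *Mertk* was at 0.54. Without DSS 3 the median was -0.25. *Cd163* and *Mrc1* were lower at an unadjusted p under 0.05 in all 15 alternatives, at log2 fold changes between -2.61 and -1.71 and between -1.94 and -1.08. Without DSS+BV 1 the counts of lower genes at an unadjusted p under 0.05 were 16 of 21 in the resident list and 17 of 23 in the recruited list.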

How the data were processed

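Colon RNA libraries of 3 DSS and 3 DSS+BV mice were grouped by their titles. The authors quantified reads with RSEM and deposited expected counts per gene, unscaled. The submitters' processing notes name HISAT2 2.1.0, Bowtie2 2.2.5, RSEM 1.2.8 and GRCm38.p6. The expected counts of the 10 genes were whole numbers in all libraries, while 1573 other genes had a fraction in at least 1 library, as RSEM gives for reads shared between genes.

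Counts were rounded, filtered with filterByExpr (minimum count 10, minimum total 15), scaled with TMM factors and compared by edgeR's quasi-likelihood F test (version 4.0.16, under R 4.3.3). P-values were adjusted by Benjamini and Hochberg's method over all 14579 genes that passed. The biological coefficient of variation was 32.1%. Calls needed an adjusted p under 0.05 and a log2 fold change beyond 1 in either direction. The steps were first tested on simulated data. Patterns and clusters (average linkage on 1 minus Pearson r) used log2 CPM with a prior count of 2. DESeq2 1.42.0 was an alternative, since the authors used DESeq2. Other alternatives were RLE and upper-quartile factors, library totals alone, other filters, a robust fit, a replicate block and libraries left out. Pairs of mice within a group differed far beyond counting noise (chi-square per degree of freedom 42.7 to 118).

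The 10 genes and all lists were chosen with earlier results of these data known. Named beside them are fixed partner genes, from each pathway list the 3 genes with the smallest p and the 2 with the highest mean CPM, the 5 genes most like the mean of the 10 and the 2 most like each, except where a gene is not reported here. Other genes named were chosen after their values were seen. Exon lengths came from GENCODE vM21, and positions and promoters from RefSeq GRCm38.p6. The steps ran in Python 3.11.15, and figures were drawn with matplotlib 3.10.9.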

Additional observations from a re-analysis of the deposited data

How the results depend on the processing

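DESeq2 called 280 genes lower and 45 higher, where edgeR called 13 and 0, and called 2 of the 10 genes. With the replicate number as a block, 0 genes were called lower. *Cd163* was then at -2.10 ± 0.26, *Mrc1* at -1.39 ± 0.28 and *Csf1r* at -0.96 ± 0.34 (standard errors). For *Csf1r* the unadjusted p was 0.0373 and the adjusted p 0.461 by edgeR. Same-numbered mice had correlations of 0.267, 0.255 and -0.296, and not each mouse correlated best with its own number. The numbers were taken as names, and so few mice cannot settle whether they pair any. Leaving out 1 mouse gave 0 to 3 genes called lower and 0 to 4 higher, 2 to 7 of the 10 genes at an unadjusted p under 0.05, and 2 to 7 without overlap. *Mertk* turned to -0.13 without DSS 1 and to -0.04 without DSS+BV 3, and *Arg1* to -0.26 without DSS+BV 1; with each of the 6 mice left out they reached at most 0.54 (*Mertk*) and 0.81 (*Arg1*). Without DSS 2 and DSS+BV 1 together, a pair picked because each clusters with the other treatment, which widens the difference by construction, 333 genes were called lower and 282 higher, 4 of the 10 genes were called, all lower (2.27% of all tested genes were called lower), 8 were lower at an unadjusted p under 0.05 (13.1% of all) and 0 higher (10.1% of all), 10 had groups without overlap (9 lower, where 29.1% of all tested genes were, and 1 higher, where 24.8% were), the median was -1.30 and *Arg1* was at -0.40. The other scalings and filters kept each direction and call of the 10 genes. *Arg1* rests on few reads, 25 to 82 counts in a library, and the spread between mice, more than depth, limits the others.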
